A study of Mus musculus with 18 samples.

Results

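The genes examined here are those that fill, empty and refill the calcium store of the endoplasmic reticulum (ER) in MIN6 cells, a mouse insulinoma line that makes and secretes insulin. They are 10 genes chosen by name: the SERCA pumps Atp2a2 and Atp2a3, the IP3 receptors Itpr1, Itpr2 and Itpr3, the calcium sensors Stim1 and Stim2, the plasma membrane channel Orai1, and the ER membrane proteins Wfs1 and Tmco1. All 10 were among 17207 genes listed in the tables, and 7 of them were among the 8331 genes with enough reads in both assays to be tested. Control cells received the solvent DMSO for 18 h, and the other cells received 200 µM cyclopiazonic acid (CPA) for 1 h or for 18 h. Each condition was measured in 3 experiments by mRNA-seq, which counts fragments of polyadenylated RNA, and by Ribo-seq, which counts the fragments that ribosomes protect, for 18 libraries in all. All samples come from the same unmodified cell line, and the p-values therefore measure the spread between experiments on these cells.

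CPA is an inhibitor of the SERCA pumps, so 2 of these genes encode the targets of the compound itself. SERCA pumps move calcium from the cytosol into the ER lumen at the cost of ATP. IP3 receptors release it when a receptor at the cell surface stimulates the production of IP3. When the lumen runs low, STIM proteins in the ER membrane sense the loss and open ORAI channels in the plasma membrane, a route called store-operated entry. Wolframin, the product of Wfs1, resides in the ER membrane, and its loss causes Wolfram syndrome, a disease with diabetes. TMCO1 has been described as a channel that opens when the store is overfilled. In beta cells the store also serves the folding of proinsulin, since many ER chaperones bind calcium.

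The libraries held 520960 to 4755030 assigned reads in mRNA-seq and 168129 to 1083297 in Ribo-seq. In Ribo-seq, the libraries of 18 h CPA (168129 to 553842 reads) were all shallower than those of control (821147 to 1083297 reads). All 11 beta-cell markers had reads, and their summed level was 158996 to 465095 RPKM (reads scaled to transcript length and library total) in control mRNA. It was 44390 to 135868 RPKM after 18 h, and in both assays 10 of the 11 markers fell, among them Slc2a2 and Ins1. Of all tested genes, 8.34% fell in mRNA-seq and 6.29% in Ribo-seq. The 11 markers of other islet, exocrine, stromal and immune cells summed to 22.2 to 136 RPKM over the mRNA-seq libraries, most of it glucagon (Gcg), the only one with enough reads to be tested, which was not called changed. The insulin genes Ins1 and Ins2 took 6.60 to 20.9% of control mRNA reads and 1.44 to 5.06% after 18 h. A single gene, Lars2, took 45.1 to 54.8% of the mRNA reads in the 3 conditions of experiment 1. Its share also differed between conditions within the other experiments. In control, at 1 h and at 18 h it was 7.19, 38.1 and 5.46% in experiment 2 and 15.1, 8.27 and 4.75% in experiment 3. The control libraries of experiment 2 carry labels that name different assays in different fields, and each was placed by its title, which the table headers match. All 8 markers of the ER stress response rose after 18 h in both assays, beside 25.9% of all tested genes in mRNA-seq and 21.4% in Ribo-seq. In bulk samples such as these, fewer cells that use a gene and less RNA of that gene per cell cannot be told apart.

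The start regions of 8 of the 10 genes could be read from RefSeq (assembly GRCm38.p6). They were searched on both strands, over 300 bases, for 4 elements tied to ER stress. These were ERSE (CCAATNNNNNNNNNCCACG, held by 0.119% of 32851 promoters), ERSE-II (the reverse complement of CCAAT followed by CCACG with 1 base between them, 0.0365%), the core of the unfolded protein response element (TGACGTG, 2.01%) and the core of the CARE element (TGATGNAA, 3.97%). None of the 8 windows held any of them. For Stim1 and Itpr3 the bases before the start used lie inside the listed span of the gene. They end at chr7:102267818 and chr17:27057303, and the spans begin at 102261514 and 27057002. The window of Hspa5, which encodes the ER chaperone BiP, held an ERSE and the unfolded protein response core, which began at −65 and −157 relative to the start, and it is shown for comparison. After this search the CCAAT and CCACG of ERSE were also located alone in the 250 bases before each start, where 33.8% of all promoters hold CCAAT and 28.3% hold CCACG on either strand. Wfs1, the member that rose most, held a single CCAAT, at −93, and no CCACG. Stim2 held 1 CCAAT and 5 CCACG, and Atp2a3 held neither. The 4 sequences are shown because they belong to the gene that rose most, a pump that fell, a sensor whose assays differed and a chaperone gene with the full element. Each is the gene's strand, 5′ to 3′, ending at the base before the start, and capitals mark CCAAT and CCACG on either strand. The Wfs1 window is chr5:36988983-36989232 (minus strand), Atp2a3 is chr11:72960919-72961168 (plus), Stim2 is chr5:53998273-53998522 (plus) and Hspa5 is chr2:34771840-34772089 (plus).
Wfs1: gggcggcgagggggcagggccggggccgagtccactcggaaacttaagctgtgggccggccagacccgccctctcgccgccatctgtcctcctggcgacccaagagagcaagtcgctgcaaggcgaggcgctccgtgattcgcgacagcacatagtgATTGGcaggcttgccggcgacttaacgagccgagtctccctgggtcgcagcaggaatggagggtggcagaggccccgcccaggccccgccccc
Atp2a3: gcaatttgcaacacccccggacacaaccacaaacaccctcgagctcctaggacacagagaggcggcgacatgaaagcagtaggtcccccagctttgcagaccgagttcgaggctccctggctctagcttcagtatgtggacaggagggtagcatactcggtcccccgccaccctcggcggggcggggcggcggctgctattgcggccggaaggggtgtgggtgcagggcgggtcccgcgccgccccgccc
Stim2: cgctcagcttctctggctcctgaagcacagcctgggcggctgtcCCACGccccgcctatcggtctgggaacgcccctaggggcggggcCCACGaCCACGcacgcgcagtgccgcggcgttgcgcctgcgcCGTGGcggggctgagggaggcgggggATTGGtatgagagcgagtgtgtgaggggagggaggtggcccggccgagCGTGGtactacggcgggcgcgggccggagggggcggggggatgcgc
Hspa5: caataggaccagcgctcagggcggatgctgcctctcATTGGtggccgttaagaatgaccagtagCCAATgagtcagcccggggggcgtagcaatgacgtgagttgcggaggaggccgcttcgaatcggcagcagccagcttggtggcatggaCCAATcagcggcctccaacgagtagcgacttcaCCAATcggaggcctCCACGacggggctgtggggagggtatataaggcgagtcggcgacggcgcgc

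In control cells the store was served by a few abundant transcripts and many scarce ones. Among the pumps, the mRNA level of Atp2a3 was 293 ± 82.9 RPKM (mean ± SD, n = 3) and that of Atp2a2 was 223 ± 122 RPKM, and their ranges overlapped. In Ribo-seq the order was turned and the ranges did not overlap, at 911 ± 127 RPKM for Atp2a2 and 209 ± 14.5 RPKM for Atp2a3. Wfs1 came next in both assays, with 26.4 ± 7.72 RPKM in mRNA-seq and 43.3 ± 7.58 RPKM in Ribo-seq. Tmco1 followed at 9.57 ± 2.35 and 23.8 ± 3.54 RPKM, and Stim2 at 6.20 ± 4.04 and 13.01 ± 2.04 RPKM. Stim1 and Orai1 lay lower, at 4.32 ± 0.34 and 2.72 ± 1.61 RPKM in mRNA-seq, with ranges that overlapped in both assays. In mRNA-seq the ranges of Tmco1, Stim2, Stim1, Orai1 and Itpr3 overlapped from each to the next in this order. The IP3 receptors were the scarcest members. Itpr3 had 1.26 ± 0.42 RPKM in mRNA-seq and 1.09 ± 0.14 RPKM in Ribo-seq, while Itpr1 and Itpr2 had means of 0.1296 and 0 RPKM in mRNA-seq and of 0.367 and 0.360 RPKM in Ribo-seq, with ranges that overlapped.

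**Figure D1:**
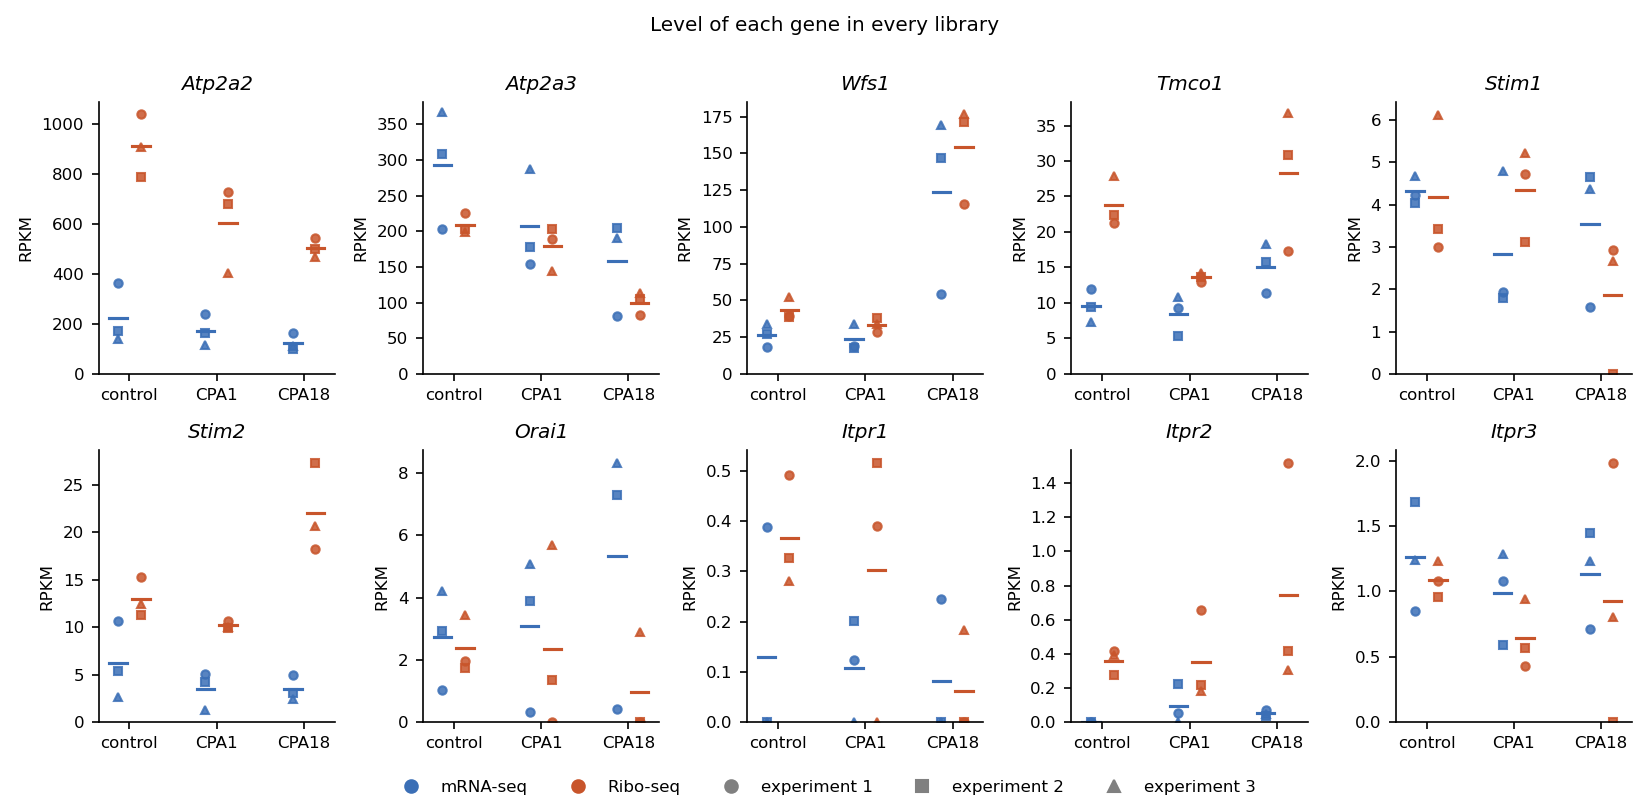
Levels of the 10 genes in every library, as RPKM on a linear axis from 0 that is scaled separately for each gene, by condition (control, CPA for 1 h as CPA1, CPA for 18 h as CPA18) and assay (mRNA-seq blue, Ribo-seq orange), with a point for each of the 3 experiments and a line at their mean. The Ribo-seq points of Atp2a2 and Atp2a3 at CPA18 lie below those of control, those of Wfs1 and Stim2 lie above, and the points of Itpr1 and Itpr2 stay under 2 RPKM.

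RPKM divides by the whole transcript, of which ribosomes cover the coding part, and that part differed between members. It made up 12.7% of the Tmco1 transcript and 75.0% of the Wfs1 transcript. In footprints scaled to the coding length (in kilobases) and to the library total (CPM), control cells had 188 ± 27.96 on Tmco1 and 57.8 ± 10.1 on Wfs1, so these genes changed places on this scale. Atp2a2 was first here too with 1327 ± 185, Atp2a3 had 312, Stim2 had 28.8 ± 4.51 and Itpr3 had 1.22 ± 0.15 on this scale.

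The first question is whether a SERCA inhibitor changed the expression of the pumps. Conditions were compared within experiments by edgeR on read counts, with p-values adjusted over all 8331 tested genes and a threshold of 0.05. After 18 h both pumps fell in both assays, by 1.67 to 2.04-fold, and after 1 h only the footprints of Atp2a2 passed the test. The difference between the pumps at 1 h was tested only as the share of Atp2a3 among the SERCA genes, given below. It was not called, in a permutation test that cannot give a p under 0.1. Across all members, 2 of the 7 tested fell and 1 rose at 18 h in mRNA-seq, where 8.34% of all tested genes fell and 25.9% rose. In Ribo-seq 2 fell and 2 rose at 18 h, beside 6.29% and 21.4% of all tested genes. The median change of the 7 members was −0.19 on the log2 scale in mRNA-seq and −0.43 in Ribo-seq, and that of all tested genes was 0.37 and 0.38.

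Atp2a2 (chr5:122453513-122502225) encodes SERCA2, the pump that most cell types use. It was listed as 2 transcripts that share 78.1 and 81.5% of their 28-base stretches, so that reads cannot be assigned to either with confidence and only their sum is used. Its mRNA level in experiments 1, 2 and 3 was 363, 170 and 137 RPKM in control, 238, 161 and 114 RPKM at 1 h and 164, 99.5 and 111 RPKM at 18 h. It was lower at 18 h than in control in all 3 experiments, although the ranges overlapped. The fall was 0.74 ± 0.24 on the log2 scale (± SE) at 18 h, with an edgeR adjusted p of 0.0147. In Ribo-seq it had 1040, 786 and 907 RPKM in control, 729, 678 and 401 RPKM at 1 h and 542, 498 and 467 RPKM at 18 h. Neither time overlapped control. The footprints fell by 0.62 ± 0.15 at 1 h (edgeR adjusted p = 0.00192) and by 0.86 ± 0.15 at 18 h (edgeR adjusted p = 1.17e-06). Between 1 h and 18 h they differed by −0.23 ± 0.15, which did not pass the test (edgeR adjusted p = 0.294). Under TMM normalization, which sets the typical gene equal between libraries, this difference was −0.54 and was called (edgeR adjusted p = 0.0099).

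Atp2a3 (chr11:72961169-72993043) encodes SERCA3, a pump of narrower distribution that beta cells use beside SERCA2. Its mRNA level was 203, 309 and 367 RPKM in control, 154, 178 and 288 RPKM at 1 h and 80.9, 205 and 191 RPKM at 18 h. The lowest control library lay just under the highest library of 18 h, and every experiment was lower at 18 h than in its own control. The fall at 18 h was 0.93 ± 0.25 (edgeR adjusted p = 0.0030). In Ribo-seq it had 225, 203 and 198 RPKM in control, 189, 203 and 144 RPKM at 1 h and 82.1, 104 and 113 RPKM at 18 h. All libraries of 18 h lay below all others. The footprints fell by 1.03 ± 0.17 against control (edgeR adjusted p = 1.96e-07) and by 0.80 ± 0.17 from 1 h to 18 h (edgeR adjusted p = 0.000104). At 1 h the difference from control was −0.23 ± 0.16 and did not pass the test (edgeR adjusted p = 0.51).

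The Ribo-seq falls of both pumps at 18 h were called in each of the 12 fits that left out libraries, and for Atp2a3 under every other setting too. For Atp2a2 the call was lost by limma on log2(RPKM + 0.5) (adjusted p = 0.0781) and on log2(RPKM + 1) (0.0669). The mRNA falls rested more on single experiments. Without the experiment as a block, the edgeR adjusted p was 0.38 for Atp2a2 and 0.357 for Atp2a3, and without experiment 1, whose libraries Lars2 filled most, it was 0.231 and 0.122. Over all settings these adjusted p-values ran from 1.35e-05 to 0.38 and from 5.61e-11 to 0.357. The 1 h call of Atp2a2 footprints was lost without the block (0.0955) and without experiment 3 (0.185), in a range from 4.65e-06 to 0.499.

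**Figure D2:**
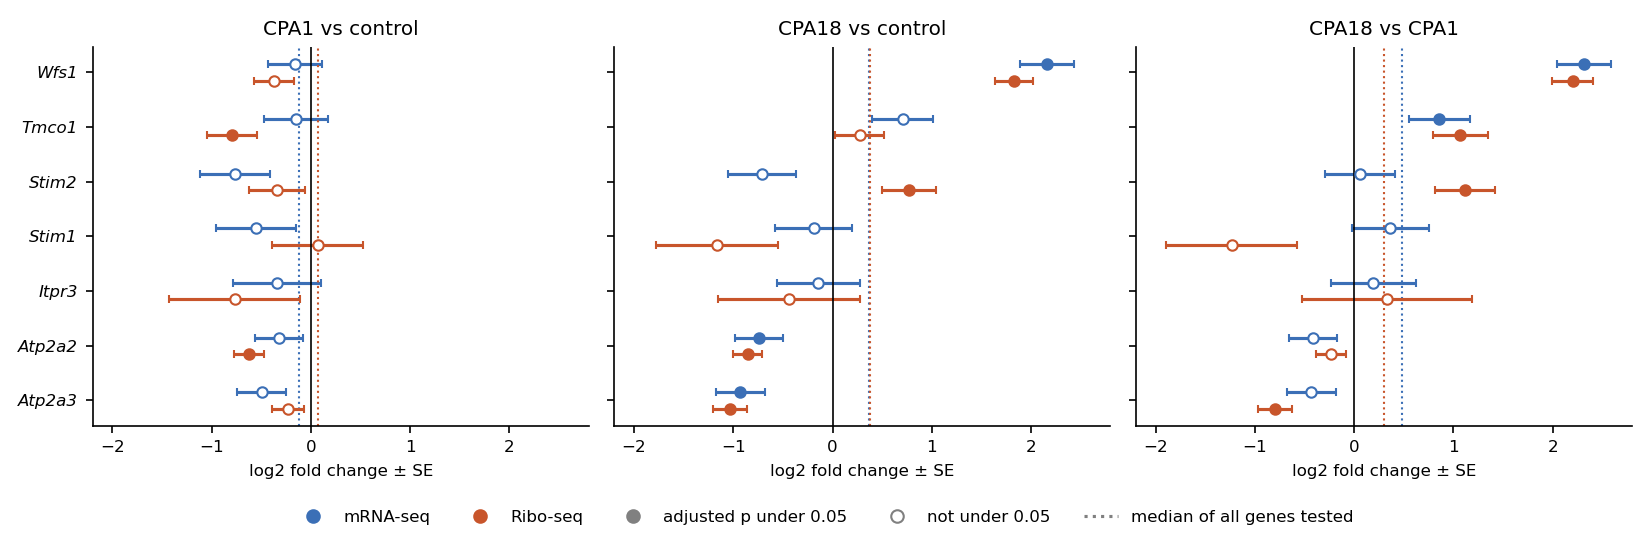
Log2 fold changes of the 7 tested members by edgeR, with bars of ± 1 SE, for 1 h against control, 18 h against control and 18 h against 1 h, in mRNA-seq (blue) and Ribo-seq (orange). Filled points passed the test, and dotted lines mark the median of all tested genes, and at 18 h against control Wfs1 lies at 2.16 and 1.83 while Atp2a2 and Atp2a3 lie below 0 in both assays.

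The share of SERCA3 among the pumps does not depend on how libraries are scaled. Atp2a3 made up 35.8, 62.2 and 72.3% of the summed RPKM of Atp2a1, Atp2a2 and Atp2a3 in control mRNA, and 33.1, 66.6 and 62.8% at 18 h. In Ribo-seq its share was 17.8, 20.5 and 17.9% in control, 20.6, 22.98 and 26.4% at 1 h and 13.1, 17.2 and 19.5% at 18 h. The share of footprints at 1 h was thus above control in all 3 experiments, by 4.59 percentage points, and the difference from 1 h to 18 h was −6.68 points. In each of these comparisons the exact two-sided permutation test gave p = 0.1, the smallest that 3 against 3 allows, and 0.36 after adjustment over 18 comparisons of shares. Pairing the experiments left p = 0.25 by an exact sign-flip test, the smallest it can give.

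**Figure D3:**
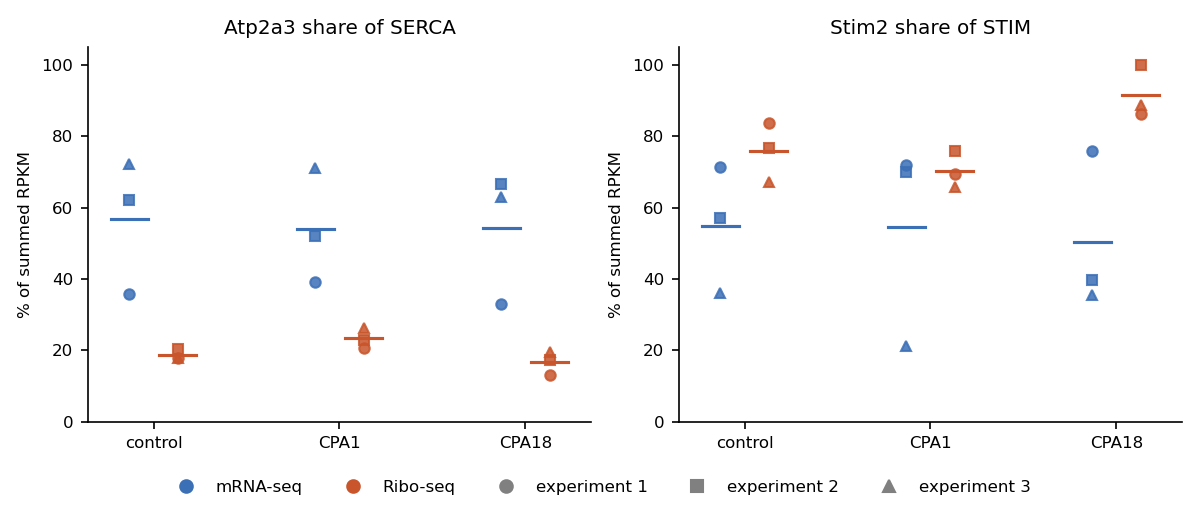
Share of Atp2a3 in the summed RPKM of the SERCA genes (left) and of Stim2 in that of the STIM genes (right), in percent, by condition and assay, with a point for each experiment and a line at the mean of 3. In control the SERCA3 share is 35.8 to 72.3% in mRNA-seq and 17.8 to 20.5% in Ribo-seq, and the Stim2 share of footprints is 86.2 to 100% at 18 h.

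Wfs1 (chr5:36966104-36988982) rose more than any other tested member. Its mRNA level was 18.3, 27.3 and 33.7 RPKM in control, 18.6, 17.8 and 33.6 RPKM at 1 h and 54.4, 147 and 169 RPKM at 18 h. In Ribo-seq it had 39.6, 38.3 and 52.1 RPKM in control, 28.7, 37.9 and 33.98 RPKM at 1 h and 115, 171 and 177 RPKM at 18 h. All libraries of 18 h lay above all others in both assays, and those of 1 h overlapped control in mRNA-seq and lay below it in Ribo-seq. The rise at 18 h was 4.47-fold in mRNA-seq (2.16 ± 0.27 on the log2 scale, edgeR adjusted p = 6.49e-09) and 3.55-fold in Ribo-seq (1.83 ± 0.19, edgeR adjusted p = 5.77e-16). From 1 h to 18 h the mRNA rose by 2.32 ± 0.27 and the footprints by 2.20 ± 0.21. These 4 calls held under every setting tried, with the 18 h changes between 1.46 and 2.43.

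STIM1 and STIM2 both sense luminal calcium, and STIM2 responds to smaller losses. Stim2 (chr5:53998523-54121057) had a lower mRNA level and more footprints at 18 h than in control in every experiment. Its mRNA level was 10.6, 5.35 and 2.64 RPKM in control, 5.01, 4.19 and 1.30 RPKM at 1 h and 4.95, 3.06 and 2.40 RPKM at 18 h. These libraries overlapped, and the change of −0.71 ± 0.34 at 18 h did not pass the test (edgeR adjusted p = 0.103). In Ribo-seq it had 15.3, 11.3 and 12.5 RPKM in control, 10.7, 9.88 and 10.0 RPKM at 1 h and 18.2, 27.4 and 20.7 RPKM at 18 h. All libraries of 18 h lay above all of control, from 15 to 56 footprints against 51 to 66 in deeper libraries. The footprints rose 1.71-fold against control (0.77 ± 0.27, edgeR adjusted p = 0.0221) and 2.17-fold from 1 h (1.12 ± 0.30, edgeR adjusted p = 0.0026).

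The rise of Stim2 footprints against control depended on the setting. It was called in 6 of 12 fits that left out libraries and in 4 of 12 other settings. The edgeR adjusted p was 0.286 under TMM normalization and 0.287 without experiment 2, and over all settings the adjusted p ran from 0.00202 to 0.434. The rise from 1 h was lost with DESeq2 (adjusted p = 0.102), with 1 transcript per gene (0.0713) and without experiment 2 (0.07), in a range from 0.00012 to 0.102. Less the median of all tested genes, the rise against control was 0.40. Stim1 had 4.24, 4.03 and 4.69 mRNA RPKM in control and 1.58, 4.65 and 4.37 RPKM at 18 h. Its footprints numbered 10, 13 and 27 in control and 2, 0 and 6 at 18 h, which gave a change of −1.17 ± 0.62 (edgeR adjusted p = 0.149). No comparison of Stim1 passed the test. Stim2 made up 83.6, 76.7 and 67.1% of the STIM footprints (by RPKM) in control and 86.2, 100 and 88.6% at 18 h, higher in all 3 experiments by 15.8 points (exact permutation p = 0.1, adjusted 0.36). In mRNA-seq its share was 54.8 ± 17.8% in control and 50.3 ± 22.2% at 18 h.

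Orai1, the pore that STIM proteins open, had too few footprints to be tested. It had 1, 9 and 19 mRNA reads in control, 1, 11 and 18 at 1 h and 1, 65 and 28 at 18 h, which are 1.03, 2.92 and 4.22 RPKM, 0.326, 3.89 and 5.08 RPKM, and 0.430, 7.31 and 8.32 RPKM. The level at 18 h was above control in experiments 2 and 3 and rested on 1 read in each library of experiment 1. Its footprints numbered 3, 3 and 7 in control and 0, 0 and 3 at 18 h.

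Tmco1 (chr1:167308670-167333978), the candidate overload channel, had fewer footprints at 1 h than in control and more at 18 h than at 1 h. Its mRNA level was 12.0, 9.38 and 7.33 RPKM in control, 9.27, 5.32 and 10.9 RPKM at 1 h and 11.3, 15.7 and 18.3 RPKM at 18 h. In Ribo-seq it had 21.2, 22.4 and 27.9 RPKM in control, 12.9, 13.7 and 14.2 RPKM at 1 h and 17.3, 30.8 and 36.7 RPKM at 18 h. The libraries of 1 h lay below all others in Ribo-seq, and those of 18 h overlapped control in both assays. The footprints fell by 0.80 ± 0.25 at 1 h (edgeR adjusted p = 0.0359) and rose by 1.07 ± 0.28 from 1 h to 18 h (edgeR adjusted p = 0.0016). The mRNA rose by 0.86 ± 0.30 from 1 h to 18 h (edgeR adjusted p = 0.0219), and its difference from control at 18 h, 0.71, did not pass the test.

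Each of these Tmco1 calls depended on the setting. The 1 h fall was lost in 9 of 12 fits that left out libraries and without the block (adjusted p = 0.113; range over the settings 0.013 to 0.44). The mRNA rise was lost under TMM normalization (0.271), without the block (0.282) and without experiment 2 (0.244), in a range from 0.00475 to 0.282. The rise of footprints from 1 h to 18 h was lost without experiment 3 (0.104) and with DESeq2 (0.0916), in a range from 3.47e-05 to 0.104.

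Atp2a2 and Tmco1 were the 2 of 7 members that fell at 1 h in Ribo-seq, beside 2.28% of all tested genes, and none rose, beside 3%. From 1 h to 18 h, 3 members rose and 1 fell in Ribo-seq, where 15.3% and 5.56% of all genes did so, and 2 rose and none fell in mRNA-seq, where 31.8% and 5.82% did so. The mRNA split depended on scaling, and the median change of all tested genes was 0.48 there. Under TMM normalization the mRNA of Atp2a2 and Atp2a3 fell (−0.96 and −0.97), and the rise of Tmco1 was lost. In mRNA-seq at 1 h no member was called by edgeR, limma or DESeq2, beside 0.42% of all tested genes by edgeR, and 2 members had an unadjusted edgeR p under 0.05.

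The IP3 receptors were measured on few reads, and no comparison of theirs passed a test. Itpr3 had 0.852, 1.69 and 1.24 mRNA RPKM in control, 1.08, 0.587 and 1.29 RPKM at 1 h and 0.715, 1.45 and 1.23 RPKM at 18 h, with ranges that overlapped. Its change at 18 h was −0.15 ± 0.42 in mRNA-seq (edgeR adjusted p = 0.816) and −0.43 ± 0.72 in Ribo-seq (edgeR adjusted p = 0.698). Itpr1 had 10 reads and Itpr2 had 9 reads over the 9 mRNA-seq libraries together, and 15 and 24 in Ribo-seq, so neither was tested. Itpr2 had 0 reads in the 3 control mRNA-seq libraries, where 3 reads, the limit that a count of 0 allows in a library, correspond to 5.76, 1.82 and 1.25 CPM. The share of Itpr1 in the footprints of the IP3 receptors was 20.2 ± 5.09% in control and 4.72 ± 8.18% at 18 h by RPKM (exact permutation p = 0.1, adjusted 0.36), from 4, 3 and 3 footprints in control and 0, 0 and 1 at 18 h. For Itpr1 and Itpr2 a change was not detectable at this depth.

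The ratio of Ribo-seq to mRNA-seq RPKM, called ribosome occupancy here, asks whether footprints changed beyond what the mRNA did. No member passed this test in any comparison by edgeR, beside 0.072% of all tested genes at 1 h, 0.3% at 18 h and 0.06% between the times. By unadjusted p under 0.05 there were 0, 1 and 2 members. The occupancy of Stim2 was 1.44, 2.11 and 4.72 in control, 2.13, 2.36 and 7.71 at 1 h and 3.68, 8.95 and 8.61 at 18 h, higher at 18 h than in control in each experiment. The interaction was 1.49 ± 0.44 on the log2 scale (edgeR adjusted p = 0.14), and it lay between 1.18 and 1.77 in every alternative, with adjusted p from 0.0622 to 1.00 and no call. Atp2a2 had 2.87, 4.62 and 6.61 in control and 3.31, 5.01 and 4.22 at 18 h, with no common direction. Atp2a3 had 1.11, 0.657 and 0.541 in control and 1.01, 0.509 and 0.593 at 18 h, below Atp2a2 in every library. Wfs1 had 2.17, 1.40 and 1.55 in control and 2.12, 1.17 and 1.04 at 18 h, lower in all 3 experiments, with an interaction of −0.34 ± 0.33 that was not called. The median of all tested genes was 1.04 to 1.29 in control and 0.927 to 1.90 at 18 h.

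**Figure D4:**
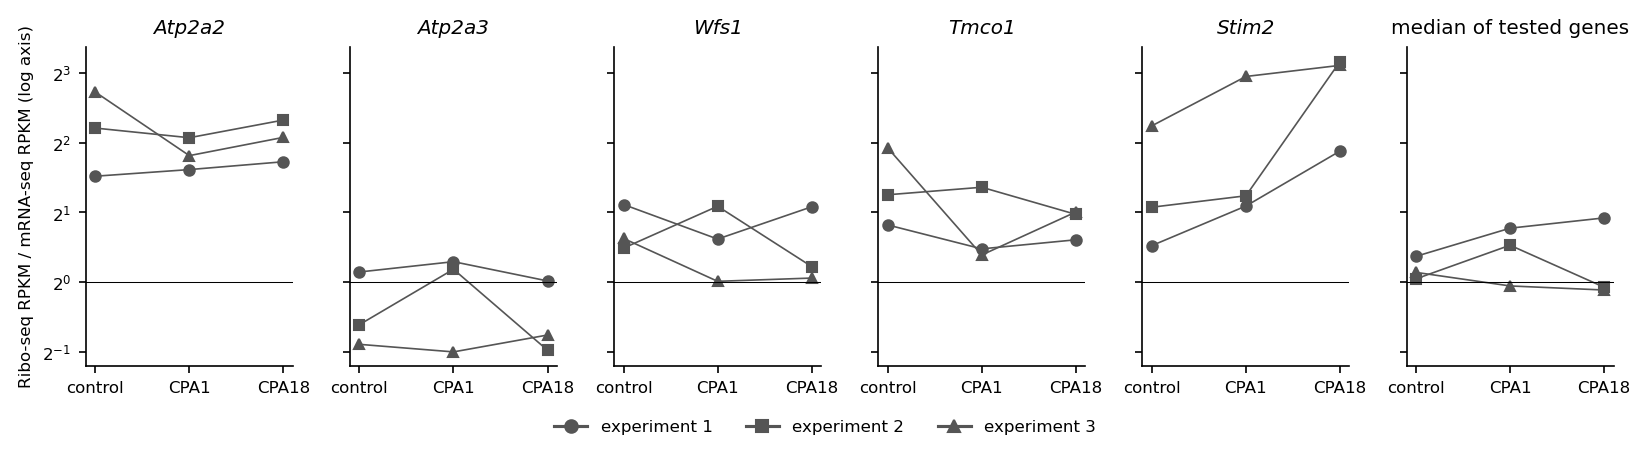
Ribosome occupancy (Ribo-seq RPKM over mRNA-seq RPKM, log axis) of 5 members and the median of the tested genes, by condition, with a line for each experiment. Stim2 is higher at 18 h than in control in all 3 experiments, Wfs1 is lower in all 3, and the pumps show no common direction.

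The genes around these members were read from lists of calcium handling genes, by the change from control to 18 h. Their counts stand beside the shares of all tested genes, of which 25.9% rose and 8.34% fell in mRNA-seq and 21.4% rose and 6.29% fell in Ribo-seq. Of 8 tested pumps and pump regulators, 5 fell and 1 rose in mRNA-seq, and 2 fell and 1 rose in Ribo-seq. In mRNA-seq 2 fell without experiment 1, and none was called without the block. Their median change was −0.80 in mRNA-seq, beside 0.37 over all tested genes. Besides the members, the SERCA1 gene Atp2a1 fell in mRNA-seq (−1.89), where the control libraries held 4, 100 and 28 of its reads, and so did Tmx1 (−0.92), a thiol oxidoreductase of the ER membrane that regulates SERCA2. Hax1, which binds phospholamban and is known as an inhibitor of cell death, rose by 2.39 in mRNA-seq and 2.54 in Ribo-seq.

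Of 14 tested calcium-binding proteins of the ER lumen, 7 rose in mRNA-seq and 8 in Ribo-seq, and none fell, beside the 25.9% and 21.4% of all tested genes that rose. They include the chaperone BiP (Hspa5, 1.83 and 1.94), calreticulin (Calr, 1.53 and 1.36) and calumenin (Calu, 1.46 and 1.29). At 1 h none of the 14 was called in mRNA-seq by edgeR, beside 0.42% of all tested genes. In Ribo-seq, where 2.28% of all tested genes fell at 1 h, 4 of the 14 fell. These were Canx, Hsp90b1, P4hb and Pdia3, at −0.58 to −0.81. They are ER chaperones and disulfide isomerases and were named after their values were seen. Under TMM normalization 5 of the 14 rose and 2 fell in each assay at 18 h. Of all 8331 tested genes, 1146 rose and 1570 fell under TMM in mRNA-seq, and 839 and 1014 in Ribo-seq. Without the block none of the 14 was called in mRNA-seq, where 144 of all tested genes rose. In Ribo-seq 7 of them rose without the block, where 1515 of all tested genes did.

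For release and leak, 2 of 11 tested genes rose and 1 fell in mRNA-seq, and 3 rose in Ribo-seq, shares of rises near those of all tested genes. Sec61a1, the translocon subunit through which calcium can leak, rose by 1.58 and 1.04. The counter-ion channel gene Tmem38b fell by 1.47 in mRNA-seq and rose by 2.44 in Ribo-seq. Its mRNA level was 3299, 82.9 and 216 RPKM in control and 1178, 66.4 and 57.7 RPKM at 18 h, and its footprints were at 18.7, 6.02 and 9.36 RPKM and then 64.5, 43.0 and 70.1 RPKM. It was the only gene of these lists whose occupancy changed from control to 18 h by edgeR (3.92, adjusted p = 8.27e-06). Its mRNA level was highest in the libraries of experiment 1, where the share of Lars2 was highest too, and the part of that in the result was not tested. Its mRNA call was kept in 2 of 7 other settings. It was lost under TMM normalization, with DESeq2, without the block and without experiment 1. It was also lost when Ins1, Ins2 and Lars2 were left out of the total count.

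Among 13 tested regulators of the IP3 receptors, 2 rose and 2 fell in mRNA-seq, and 2 rose and 1 fell in Ribo-seq. Erlin1, part of a complex that degrades activated receptors, rose by 2.42 and 2.70, and Ahcyl1 (IRBIT), which competes with IP3 for the receptor, fell by 0.82 and 0.71. For the production of IP3, 4 of 11 genes fell in mRNA-seq and 3 fell and 1 rose in Ribo-seq, with the purinergic receptor P2ry1 (−1.37 and −1.53) in both and the phospholipase Plcb1 (−1.84) in mRNA-seq. The mRNA-seq falls numbered 1 without experiment 1, 2 with an offset for GC content and length, and 0 without the block. Of 12 store-operated entry genes, 2 rose in mRNA-seq and 3 rose and 1 fell in Ribo-seq. Saraf, which turns store-operated entry off, rose by 1.43 and 1.25, Stimate, which helps STIM1 at the junctions, by 1.62 in mRNA-seq, and the tether Esyt1 fell by 0.96 in Ribo-seq.

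At the plasma membrane and Golgi, 2 of 5 tested genes fell in mRNA-seq and 1 in Ribo-seq, with the plasma membrane pump Atp2b1 at −1.38 and −1.40 and the Golgi pump Atp2c1 at −1.46 in mRNA-seq. Both mRNA calls were lost without experiment 1 and without the block, and that of Atp2b1 also with the offset for GC content and length. The Ribo-seq call of Atp2b1 held in these settings. Of 4 tested voltage-gated channel genes, Cacna2d1 fell in both assays (−1.30 and −0.71). Both of its calls were lost without the block, without experiment 1 and with the offset for GC content and length. Among 17 mitochondrial uptake and contact genes 3 rose in each assay, a smaller share than among all tested genes, with the chaperone Hspa9 at 1.94 and 1.28 and the outer membrane channel Vdac3 at 1.35 and 1.48. Among 7 genes for wolframin and its partners, 1 rose and 1 fell in mRNA-seq and 2 rose and 1 fell in Ribo-seq. The riser in mRNA-seq was Wfs1 itself, and the sodium pump subunit Atp1b1, a partner of wolframin, fell by 1.02 and 0.87. No gene named in these lists changed sign under the 7 other scalings and fits they were read in, while without the block the mRNA calls of most of them were lost.

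**Figure D5:**
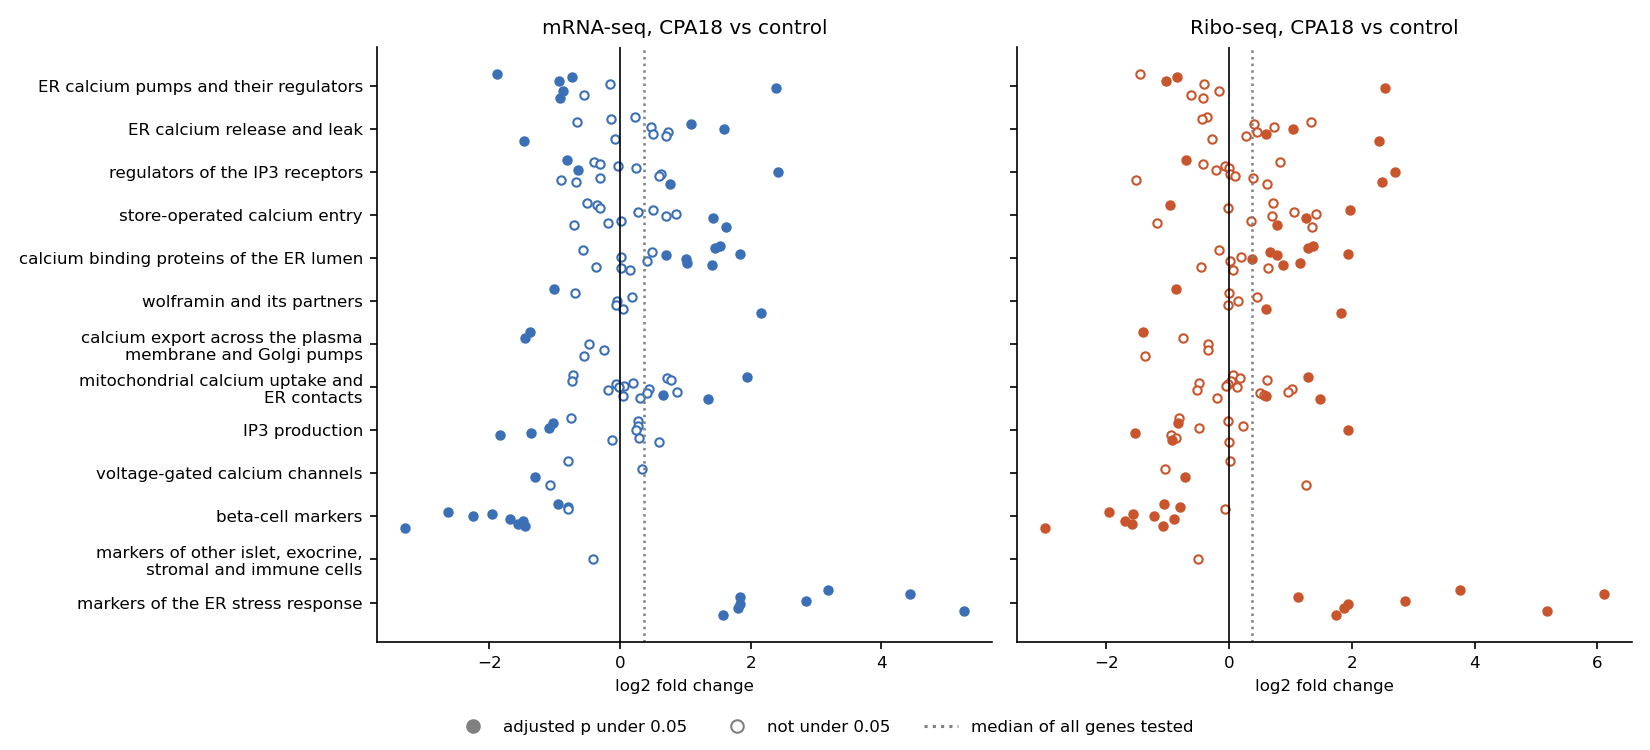
Log2 fold change from control to 18 h of CPA of each tested gene of the calcium handling and marker lists, in mRNA-seq (left) and Ribo-seq (right), with a point for each gene, filled where it passed the test, and a dotted line at the median of all tested genes. The calcium-binding proteins of the ER lumen show 7 filled points in mRNA-seq and 8 in Ribo-seq, all above 0, and the pumps and their regulators show 5 and 2 filled points below 0.

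The pattern of Atp2a2 over the 18 libraries, each taken relative to its experiment and assay, was most like that of Atp2b1 (Pearson's r = 0.968 across libraries, of 4323 genes compared), then Igf2r (0.936), Sort1 (0.925), Atp8b1 (0.918) and Cyfip2 (0.914). Atp2a3 came at place 102 with r = 0.784. The pattern of Wfs1 was most like that of Eif1 (r = 0.992), Hid1 (0.990), Hyou1 (0.990), Rpn1 (0.986) and Sec61a1 (0.986), of which Hyou1, Rpn1 and Sec61a1 serve the folding, glycosylation and entry of proteins in the ER. These values are descriptions over libraries that share conditions and depths, and they carry no test.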

How the data were processed

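MIN6 cells were profiled by mRNA-seq and Ribo-seq in control, after 1 h and after 18 h of CPA, in 3 experiments (18 libraries). The authors deposited, for each experiment, read counts and RPKM values per RefSeq transcript, and the submitters' processing notes name Bowtie2 and the GRCm38 build. The deposited counts and the deposited RPKM of NM_ transcripts were summed per gene symbol (17207 genes), and 0 value columns were left unmapped. Genes with a mean of at least 5 CPM over the 9 libraries of each assay were tested (8331). The main test was the quasi-likelihood test of edgeR 4.0.16 (R 4.3.3) on counts, with each library scaled by its total count, the experiment as a block and Benjamini-Hochberg adjustment over all tested genes. Ribosome occupancy was tested in a joint fit of both assays by their interaction with treatment. The labels number the experiments as batches and the tables were made per batch, so numbers pair the samples. Deviations from the group means correlated at 0.542 on average (0.122 to 0.721) between mRNA-seq libraries of the same experiment and at 0.124 (0.084 to 0.189) in Ribo-seq. Shares were tested by exact two-sided permutation (smallest p 0.1). Alternatives used DESeq2 1.42.0 and limma 3.58.1 on log2(RPKM + 0.5) or log2(RPKM + 1), TMM, other totals, filters, 1 transcript per gene, an offset for GC content and length (added after seeing the data), and libraries left out in turn. Tested on simulated counts for 18 h against control, 90% of genes changed by 2 on the log2 scale and 27.5% of those changed by 1 were called in mRNA-seq, and 74.5% and 22% in Ribo-seq. The simulation changed 200 of 8331 genes, fewer than the 2856 (mRNA-seq) and 2305 (Ribo-seq) called in the data. Its shares therefore need not hold for these data. Named genes were all 10 members, up to 3 genes with the largest rise and fall among the 18 h calls of each list, and the 5 genes most like Atp2a2 and Wfs1. The members and the gene lists were chosen with earlier results of these data known. Intervals and limits from counts cover counting error only. The value of 1 listed gene is not reported here.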

Additional observations from a re-analysis of the deposited data

Results flagged for a closer look

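Several members had a change from control at 18 h that differed from their change at 1 h, by the edgeR test between the times. In Ribo-seq this held for Atp2a3 (−0.80 on the log2 scale), Stim2 (1.12), Wfs1 (2.20) and Tmco1 (1.07). The Stim2 and Tmco1 differences were not called with DESeq2 (adjusted p = 0.102 and 0.0916). In mRNA-seq it held for Wfs1 (2.32) and Tmco1 (0.86). The Tmco1 difference in mRNA was not called with DESeq2 (adjusted p = 0.275) or under TMM normalization (edgeR adjusted p = 0.271). For Stim2, all 3 experiments were lower in mRNA-seq and higher in Ribo-seq at 18 h than in control, and the test of that difference between the assays gave 1.49 with an adjusted p of 0.14. For Tmem38b the change in Ribo-seq differed from that in mRNA-seq by 3.92 from control to 18 h and by 2.84 from 1 h to 18 h (edgeR), and these were called in 27 and 16 of 33 alternatives. Groups of 3 libraries are too small to single out a library that lies far from the others.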

How the results depend on the processing

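Of the counts of members called, that of mRNA-seq at 18 h against control (3) was 1 without the replicate block and 1 to 4 when libraries were left out. That from 1 h to 18 h in mRNA-seq (2) was 1 without the block, 1 without the insulin genes in the total, 1 by limma with either pseudocount, and 1 to 2 when libraries were left out. Under TMM the members called also changed. The rise of Tmco1 was lost (edgeR adjusted p = 0.271), while Atp2a2 and Atp2a3 fell (−0.96 and −0.97). In Ribo-seq, the 1 h count (2) was 0 without the block, 0 by limma with either pseudocount, 1 without the filter, 1 without the control libraries of experiment 2, and 0 to 2 when libraries were left out. The Ribo-seq counts at 18 h (4) and from 1 h to 18 h (4) were each 2 by limma with either pseudocount, and 3 to 4 and 3 to 5 when libraries were left out. The cause of these changes was not tested, and no called change of a member reversed its direction in any alternative.

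The pairing by experiment mattered most for mRNA-seq, where 2856 genes were called at 18 h against control with the block and 195 without it, and 3137 and 183 from 1 h to 18 h. For the shares, the paired sign-flip test gave p from 0.25 to 1. The split of all calls moved with scaling: at 18 h, 2161 rose and 695 fell in mRNA-seq with the total count, 1146 and 1570 with TMM, and 937 and 1218 with DESeq2, and in Ribo-seq 1781 and 524, 839 and 1014, and 499 and 633. Under these scalings the mRNA of Atp2a2 and Atp2a3 also fell from 1 h to 18 h (TMM: −0.96 and −0.97), and that of Stim2 against control (TMM: −1.11).

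No difference of shares was called in either assay. In mRNA-seq the Stim2 share at 1 h differed from control by −0.37 points, and by 7.91 points with 1 transcript per gene. With libraries left out, the mRNA share differences (1 h against control, 18 h against control, 18 h against 1 h) ran from −5.81 to 0.97, −6.10 to 0.82 and −7.07 to 4.32 points for Atp2a3, from −10.8 to 9.92, −3.76 to 0.0 and −9.92 to 6.99 for Itpr1, and from −7.09 to 6.83, −8.97 to 1.90 and −13.3 to 8.99 for Stim2, and the Ribo-seq difference of Itpr1 at 1 h from −6.52 to 10.2. Depth limits Itpr1, Itpr2, Itpr3, Orai1 and Stim1 most.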
